A study of Homo sapiens with 3 samples.

Results

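The genes described here are 42 protein-coding genes that lie, with other genes between them, on the short arm of chromosome 11, between 9.38 and 28.5 Mb on GRCh38, from IPO7 to METTL15. They were named by symbol from a map position and from measured values, since their levels had been seen to move together in these same libraries, so every count and median below describes them and supports nothing beyond that. All 42 were found among the 22464 Ensembl genes of the deposited expression table. The values come from SK-Hep-1, a long-established human tumour line from a liver adenocarcinoma, known for endothelial traits. Lentiviral short hairpin RNAs were carried stably in 3 lines. The sh1089-1 line and the sh1089-2 line carry separate hairpins, each aimed at the long noncoding RNA LINC01089, and the shNC line carries a negative control. Each line gave 1 library from mRNA-enriched RNA extracted with Trizol. Whether a line is a pool or 1 clone is not given in the sources used here. The level of LINC01089 was not analysed here, and the labels could not be set against the level of the target.

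Neighbouring genes on a chromosome share a stretch of DNA, and the same stretch can be gained or lost as a block in aneuploid tumour lines. A gain or loss of copies is known to move the RNA of many genes in the block at once, roughly with the number of copies, although single genes can depart from it. Long domains of chromatin can also change as blocks. The question put to the 42 genes was whether their shift follows the map. RNA levels were the only measurement: DNA copy number was not analysed here, and its part in any value below was not tested.

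Levels are in FPKM, in which fragments are divided by the length of the gene and the total of the library. Differences are of log2(FPKM + 1), a hairpin library minus the shNC library, so that a negative value is lower in the hairpin line, and the added 1 shrinks the differences of low genes. Genes with a mean of at least 1 FPKM over the 3 libraries were compared, which left 11198 genes, and 37 of the 42. A gene is called lower or higher past 1.5-fold on that scale. With 1 library in each group there is no replicate check and no test; ratios are given with 95% intervals that cover the counting of reads only. In bulk RNA, fewer cells with a transcript and less of it in each cell cannot be told apart.

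The libraries held 9528312 reads in sh1089-1, 8359832 in sh1089-2 and 10698480 in shNC, as worked out from the steps between low values. Median differences over all genes compared were near 0, at -0.03 in sh1089-1 and -0.04 in sh1089-2. Defining hepatocyte genes were scarce: TTR, APOA1 and FGB were listed at 0 in every library, and SERPINA1 alone reached 1 FPKM of the 4 markers in the table. Of 6 endothelial markers in the table only CAV1 reached 1 FPKM. The summed endothelial marker level was 265 FPKM in sh1089-1, 278 in sh1089-2 and 248 in shNC, nearly all of it CAV1. The highest value of PECAM1, CDH5, VWF, TEK and ERG was 0.058 FPKM, for TEK in shNC. Fibroblast markers summed to 13.9, 14.6 and 9.52 FPKM in the same order, with THY1 at 12.2, 11.9 and 6.85 FPKM making up most of the sum and PDGFRB at 1.26, 1.94 and 2.03 FPKM. The part of either list in the results was not tested.

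The starts of 4 members are shown first, because HPS5, RNF141 and LGR4 were the members past 1.5-fold lower in both hairpin libraries and GTF2H1 starts back to back with HPS5. Each is the 250 bases before the gene's start in RefSeq on GRCh38.p14, written 5′ to 3′ on the gene's strand. Capitals mark, on either strand, the E-box letters CACGTG, the cyclic AMP response letters TGACGTCA, the GC box letters GGGCGG, and the letters CCAAT. HPS5 is chr11:18322141-18322390 on the minus strand, GTF2H1 is chr11:18322317-18322566 on the plus strand, RNF141 is chr11:10541188-10541437 on the minus strand and LGR4 is chr11:27472791-27473040 on the minus strand.
HPS5: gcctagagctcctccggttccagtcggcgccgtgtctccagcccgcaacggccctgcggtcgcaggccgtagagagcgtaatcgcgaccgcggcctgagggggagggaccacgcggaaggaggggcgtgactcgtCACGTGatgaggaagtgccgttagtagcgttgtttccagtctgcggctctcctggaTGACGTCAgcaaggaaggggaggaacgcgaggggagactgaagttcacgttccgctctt
GTF2H1: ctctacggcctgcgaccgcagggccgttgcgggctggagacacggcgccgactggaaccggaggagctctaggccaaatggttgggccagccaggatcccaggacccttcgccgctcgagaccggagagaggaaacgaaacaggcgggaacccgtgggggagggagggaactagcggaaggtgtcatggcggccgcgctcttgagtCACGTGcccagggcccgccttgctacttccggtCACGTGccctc
RNF141: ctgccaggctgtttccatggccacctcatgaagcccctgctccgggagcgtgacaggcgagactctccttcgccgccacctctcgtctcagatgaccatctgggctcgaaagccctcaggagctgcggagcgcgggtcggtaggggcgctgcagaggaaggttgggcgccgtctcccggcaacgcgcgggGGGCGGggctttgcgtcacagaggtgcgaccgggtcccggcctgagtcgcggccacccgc
LGR4: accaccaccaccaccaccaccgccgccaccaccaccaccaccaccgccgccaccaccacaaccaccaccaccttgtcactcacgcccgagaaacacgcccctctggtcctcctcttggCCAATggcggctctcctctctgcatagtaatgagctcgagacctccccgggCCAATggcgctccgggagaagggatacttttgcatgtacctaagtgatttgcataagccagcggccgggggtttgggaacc

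The start sites of HPS5 and GTF2H1 lie 427 bases apart and point away from each other, so that the windows share 74 bases. The HPS5 window holds CACGTG at 115 bases before the start and TGACGTCA at 59 bases. The GTF2H1 window holds CACGTG at 44 and at 11 bases before its start. A TGANTCA at 49 bases in GTF2H1 overlaps the first of these and is not in capitals. RNF141 holds 1 GGGCGG, at 60 bases, and LGR4 holds CCAAT at 132 and 81 bases. None of these motifs is in all 4 windows.

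Windows were found for 36 of the 42 members. For each, only the window nearest its gene start was kept, out of 67 windows of members. The set of all windows keeps every start listed for a gene, so the sets are not alike in kind. Of the motifs, CACGTG was in 16.7% of the member windows and in 6.34% of all 35116 RefSeq windows of the same length. TGACGTCA was in 8.33% of the member windows and in 1.65% of all. GGGCGG was in 69.4% of the member windows, against 42.6% of all, and CCAAT in 41.7%, against 32.0%. TGANTCA was in 8.33% of the member windows and 6.57% of all. The windows of the members had a median GC content of 64.2%, and all windows had 58%. A match in these letters says only that they are present.

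Most members were lower in the hairpin lines, by a modest amount at the median and unevenly from gene to gene. Of 37 members compared, 32 were below shNC in sh1089-1, where 53.6% of all genes compared were below it. In sh1089-2, 34 were below shNC, where 55.1% of all genes were. Since these values chose the members, nothing is read from the counts beyond their size. The median difference of the members was -0.32 in sh1089-1 and -0.36 in sh1089-2. As ratios of FPKM + 1, not of reads, these are 0.799 and 0.778, and the added 1 shrinks them. On reads scaled to the library total, with no added 1, the medians over 40 members were -0.43 in sh1089-1 and -0.47 in sh1089-2. Single members ranged between -1.61 and 0.24 in sh1089-1 and between -1.60 and 0.47 in sh1089-2.

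Few members crossed the 1.5-fold line. In sh1089-1, 4 members were at least 1.5-fold lower, where 5.83% of all genes were, and 0 were higher, where 5.27% of all were. In sh1089-2, 8 were lower, where 5.63% of all were, and 0 were higher, where 4.89% of all were. The shift of the set was thus a broad one below that line, with a few genes far past it. Past 1.5-fold lower in both hairpin libraries were 3 members, HPS5, RNF141 and LGR4, where 2.79% of all genes were. At least 2-fold lower were 2 members in sh1089-1, beside 1.51% of all genes, and 2 in sh1089-2, beside 1.61%. By read counting, the interval of the ratio lay below 1 for 25 members in sh1089-1, beside 27.9% of all genes, and above 1 for 0, beside 24.7%. In sh1089-2 it lay below 1 for 27 members, beside 27.6% of all genes, and above 1 for 2, DKK3 and NAV2, beside 22.1%. Most members thus had an interval on the low side of shNC. The same values chose the members, so nothing is read from these counts beyond their size. Reads assigned to the 42 members came to 1248 RPM (reads scaled to the library total) in sh1089-1, 1222 RPM in sh1089-2 and 1727 RPM in shNC.

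**Figure D1:**
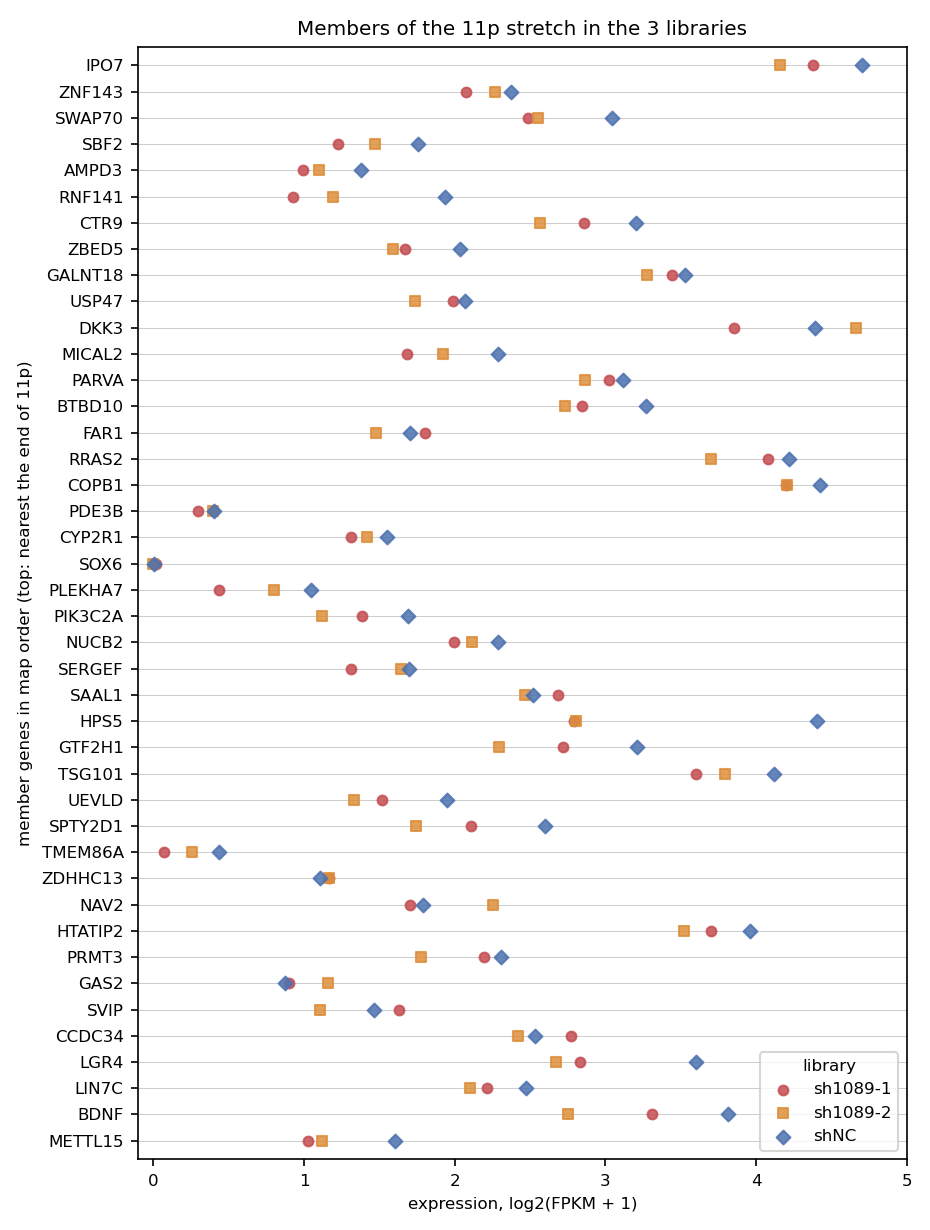
Expression of each member in map order, as log2(FPKM + 1) on the horizontal axis, with 1 point for each library (circle sh1089-1, square sh1089-2, diamond shNC). The shNC point lies to the right of the others in most rows, farthest in HPS5, and members such as ZDHHC13, SAAL1 and DKK3 depart from that order.

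Both comparisons use the same shNC library, so a low reading in both hairpins and a high reading in shNC alone cannot be told apart from them. Set against each other, the hairpin lines had a smaller median difference over the members. The median of sh1089-2 minus sh1089-1 was -0.12, beside -0.01 over all genes compared. In sh1089-2, 21 of 37 members were below sh1089-1, where 52.1% of all genes were. At least 1.5-fold lower in sh1089-2 than in sh1089-1 were 0 members, beside 2.3% of all genes, and 1 was higher, DKK3, beside 2.47%. At least 2-fold lower were 0 members, beside 0.884% of all genes. By read counting, the interval of the ratio of sh1089-2 to sh1089-1 lay below 1 for 13 members, beside 20.2% of all genes, and above 1 for 5, beside 17.5%. Intervals thus lay off 1 in both directions in single members, as they did among all genes compared. With 1 library for each line, nothing particular to the members is read from this.

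The 7 members of transcription, chromatin and the methylation of RNA or proteins were all below shNC in both hairpin lines, where 42.3% of all genes compared were. They had a median of -0.37 in sh1089-1 and -0.53 in sh1089-2. GTF2H1, the p62 subunit of the general transcription and repair factor TFIIH, had 5.58 FPKM in sh1089-1 and 3.91 in sh1089-2, against 8.26 in shNC. Its difference was -0.49 in sh1089-1 and -0.91 in sh1089-2. CTR9, the scaffold of the PAF1 elongation complex, had 6.26 and 4.91 FPKM in sh1089-1 and sh1089-2, against 8.23 in shNC. Both genes thus had their lowest level in sh1089-2. SPTY2D1, a histone chaperone of the SPT2 family, had 3.31 and 2.35 FPKM in sh1089-1 and sh1089-2, against 5.05 in shNC. PRMT3, which methylates arginines of a small ribosomal subunit protein, had 3.58 FPKM in sh1089-1, close to the 3.96 in shNC, and 2.42 in sh1089-2. The order of the lines was the other way in ZNF143, a zinc finger factor that binds many promoters. It had 3.21 and 3.82 FPKM in sh1089-1 and sh1089-2, against 4.18 in shNC. ZBED5, a domesticated transposase gene, had 2.19 and 2.01 FPKM in sh1089-1 and sh1089-2, against 3.11 in shNC. METTL15, which methylates the small ribosomal RNA of mitochondria, had 1.04 and 1.17 FPKM in sh1089-1 and sh1089-2, against 2.04 in shNC. METTL15 is the last member of the map and was still -0.58 in sh1089-1 and -0.49 in sh1089-2.

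Genes of membrane traffic and nuclear import made up the largest group, with 10 members compared. In sh1089-1, 9 of them were below shNC, where 53.6% of all genes compared were. All 10 were below it in sh1089-2, where 55.1% of all genes were. Their medians were -0.35 in sh1089-1 and -0.35 in sh1089-2. HPS5, a subunit of the BLOC-2 complex that sorts cargo to melanosomes and other lysosome-related organelles, stood apart from the rest. It had 5.94 FPKM in sh1089-1 and 6.01 in sh1089-2, against 20.2 in shNC, from 364, 323 and 1390 reads. The ratio to shNC was 0.294 in sh1089-1, with an interval from 0.261 to 0.330, and 0.297 in sh1089-2, with an interval from 0.263 to 0.336. GTF2H1, which starts beside it on the other strand, was lower by less than this in both lines. The files do not say whether reads were counted by strand, so reads where neighbouring genes overlap cannot be told apart.

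TSG101, the core of the ESCRT-I complex that sorts ubiquitinated cargo into vesicles, had 11.1 and 12.8 FPKM in sh1089-1 and sh1089-2, against 16.4 in shNC. UEVLD, a gene with a ubiquitin-conjugating variant domain next to TSG101 on the map, had 1.86 and 1.52 FPKM in sh1089-1 and sh1089-2, against 2.86 in shNC. IPO7, an importin that carries ribosomal proteins and other cargo into the nucleus, had 19.8 and 16.9 FPKM in sh1089-1 and sh1089-2, against 25.0 in shNC. All 3 were therefore lower in both hairpin lines, without reaching 1.5-fold in both. COPB1, the beta subunit of the COPI coat, had 17.3 and 17.4 FPKM in sh1089-1 and sh1089-2, against 20.5 in shNC. SBF2, a myotubularin-related pseudophosphatase of endosomes, had 1.34 and 1.78 FPKM in sh1089-1 and sh1089-2, against 2.38 in shNC. LIN7C, a scaffold of polarised membranes, had 3.64 and 3.29 FPKM in sh1089-1 and sh1089-2, against 4.56 in shNC. COPB1 showed the smaller difference, with -0.23 in sh1089-1 and -0.22 in sh1089-2. NUCB2, a calcium-binding protein of the secretory route, had 2.99 and 3.34 FPKM in sh1089-1 and sh1089-2, against 3.87 in shNC. SERGEF, a guanine nucleotide exchange factor tied to secretion, had 1.49 and 2.12 FPKM in sh1089-1 and sh1089-2, against 2.24 in shNC. SVIP, a small protein that binds the ATPase VCP at the endoplasmic reticulum, was the exception of the group. SVIP had 2.10 FPKM in sh1089-1 and 1.15 in sh1089-2, against 1.76 in shNC, so that sh1089-1 was above shNC and sh1089-2 below it.

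Members that shape the cytoskeleton, adhesion and small GTPase signalling were lower in sh1089-1 in 5 of 5 cases and in sh1089-2 in 4 of 5. Over all genes compared, 53.6% were below shNC in sh1089-1 and 55.1% in sh1089-2. MICAL2, which oxidises actin and so takes filaments apart, had 2.21 and 2.80 FPKM in sh1089-1 and sh1089-2, against 3.88 in shNC. SWAP70, an actin-binding signalling protein, had 4.61 and 4.86 FPKM in sh1089-1 and sh1089-2, against 7.25 in shNC. RRAS2, a RAS-like GTPase, had 15.9 and 12.01 FPKM in sh1089-1 and sh1089-2, against 17.7 in shNC. MICAL2 and SWAP70 were lower in both lines, while RRAS2 was lower mainly in sh1089-2. PARVA, alpha-parvin of the adhesion complex around integrin-linked kinase, differed less, with 7.15 and 6.27 FPKM in sh1089-1 and sh1089-2, against 7.66 in shNC. NAV2, a cytoskeletal navigator protein, was the 1 gene of the group above shNC in either line. It had 2.26 FPKM in sh1089-1 and 3.78 in sh1089-2, against 2.45 in shNC, and its ratio in sh1089-2 was 1.54 with an interval from 1.35 to 1.76.

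The secreted factors and receptors held some of the wider differences. LGR4, a receptor for R-spondins that strengthens WNT signalling, had 6.11 FPKM in sh1089-1 and 5.38 in sh1089-2, against 11.1 in shNC. The LGR4 ratio was 0.549 in sh1089-1, with an interval from 0.483 to 0.622, and 0.483 in sh1089-2, with an interval from 0.421 to 0.555. BDNF, a neurotrophin, had 8.92 FPKM in sh1089-1 and 5.75 in sh1089-2, against 13.1 in shNC. Its difference was -0.50 in sh1089-1 and -1.06 in sh1089-2. DKK3, a secreted member of the dickkopf family, lay on opposite sides of shNC. DKK3 had 13.5 FPKM in sh1089-1 and 24.4 in sh1089-2, against 20.03 in shNC, from 649, 1032 and 1084 reads. Its ratio to shNC was 0.672 in sh1089-1, with an interval from 0.609 to 0.742, and 1.22 in sh1089-2, with an interval from 1.12 to 1.33. In sh1089-2 it was 1.81 times the level of sh1089-1, with an interval from 1.64 to 2.00.

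In lipid, nucleotide and vitamin metabolism the 5 members had medians of -0.26 in sh1089-1 and -0.28 in sh1089-2. PIK3C2A, a class II phosphoinositide kinase, had 1.61 and 1.17 FPKM in sh1089-1 and sh1089-2, against 2.22 in shNC. AMPD3, an AMP deaminase, had 0.989 and 1.14 FPKM in sh1089-1 and sh1089-2, against 1.60 in shNC. CYP2R1, the main vitamin D 25-hydroxylase, had 1.49 and 1.67 FPKM in sh1089-1 and sh1089-2, against 1.92 in shNC. These 3 genes were below shNC in both lines. HTATIP2, an oxidoreductase-like protein studied as a suppressor of metastasis, had 12.01 and 10.5 FPKM in sh1089-1 and sh1089-2, against 14.6 in shNC. FAR1, which makes fatty alcohols for ether lipids, had 2.49 FPKM in sh1089-1 and 1.79 in sh1089-2, against 2.25 in shNC. The FAR1 ratio was 1.10 in sh1089-1, with an interval from 0.893 to 1.37, and 0.792 in sh1089-2, with an interval from 0.620 to 1.01, so that neither was separated from shNC by read counting.

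Members that modify proteins were uneven. RNF141, a RING finger protein, had 0.899 FPKM in sh1089-1 and 1.28 in sh1089-2, against 2.83 in shNC, from 67, 84 and 237 reads. The RNF141 ratio was 0.317 in sh1089-1, with an interval from 0.238 to 0.418, and 0.454 in sh1089-2, with an interval from 0.349 to 0.584. Its neighbours in role showed far less. USP47, a deubiquitinase, had 2.97 and 2.33 FPKM in sh1089-1 and sh1089-2, against 3.19 in shNC. GALNT18, of the family that starts mucin-type glycans, had 9.87 and 8.71 FPKM in sh1089-1 and sh1089-2, against 10.5 in shNC. ZDHHC13, a palmitoyltransferase of the Golgi, was the member closest to shNC, and on the higher side in both lines. It had 1.24 and 1.25 FPKM in sh1089-1 and sh1089-2, against 1.16 in shNC. The ZDHHC13 ratio was 1.08 in both lines, with an interval from 0.800 to 1.45 in sh1089-1 and from 0.793 to 1.47 in sh1089-2. BTBD10, a BTB domain protein, had 6.19 and 5.65 FPKM in sh1089-1 and sh1089-2, against 8.67 in shNC.

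SAAL1 and CCDC34 were above shNC in sh1089-1 and below it in sh1089-2. SAAL1, which is named for a likeness to serum amyloid A, had 5.44 FPKM in sh1089-1 and 4.53 in sh1089-2, against 4.73 in shNC. Its ratio was 1.15 in sh1089-1, with an interval from 0.917 to 1.45, and 0.958 in sh1089-2, with an interval from 0.746 to 1.23. CCDC34, a coiled-coil protein, had 5.82 FPKM in sh1089-1 and 4.36 in sh1089-2, against 4.79 in shNC. Both genes lie close to a member with a far larger difference, SAAL1 to HPS5 and CCDC34 to LGR4.

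The other 5 members were under 1 FPKM on average. PLEKHA7, a protein of adherens junctions, had 0.354 FPKM in sh1089-1 and 0.741 in sh1089-2, against 1.06 in shNC, from 37, 68 and 125 reads. PDE3B, a phosphodiesterase of cyclic AMP, had 0.226 and 0.319 FPKM in sh1089-1 and sh1089-2, against 0.322 in shNC. GAS2, which links actin and microtubules, had 0.864 and 1.24 FPKM in sh1089-1 and sh1089-2, against 0.835 in shNC. PLEKHA7 was thus lower in both lines and GAS2 was not. TMEM86A, an enzyme of plasmalogen breakdown, had 2 reads in sh1089-1, 7 in sh1089-2 and 16 in shNC. The transcription factor gene SOX6 had 2 reads in sh1089-1, 0 in sh1089-2 and 1 in shNC, at or below the floor of 3 reads, so no ratio is given.

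The genes of the same stretch that are no members are what the listing left over, and both the list and the stretch were picked on values. The stretch holds 110 listed genes, of which 57 were compared, 37 of them members and 20 not. The other 20 had a median difference of -0.24 in sh1089-1 and -0.45 in sh1089-2. Below shNC were 15 in sh1089-1 and 15 in sh1089-2, where 53.6% and 55.1% of all genes compared were. With no filter on low values, the 51 other genes of the stretch had medians of -0.09 in sh1089-1 and -0.04 in sh1089-2. Of the 20, 7 were at least 1.5-fold lower in sh1089-1 and 8 in sh1089-2, beside 5.83% and 5.63% of all genes. In each line 1 was higher, beside 5.27% of all genes in sh1089-1 and 4.89% in sh1089-2. Both lower counts include RNU7-49P, with reads in shNC only, and SNORD14A, with at most 8 reads in a library. The 15 protein-coding genes among the 20 had medians of -0.29 in sh1089-1 and -0.37 in sh1089-2, close to those of the members.

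Within these 20, LDHA, which makes lactate at the end of glycolysis, was the most abundant of the protein-coding genes. It had 328 FPKM in sh1089-1 and 324 in sh1089-2, against 578 in shNC, and it lies between members GTF2H1 and TSG101. ADM, the peptide hormone adrenomedullin, had 19.5 and 23.8 FPKM in sh1089-1 and sh1089-2, against 50.3 in shNC. EIF4G2, a translation initiation factor, had 67.7 and 63.4 FPKM in sh1089-1 and sh1089-2, against 97.2 in shNC. LDHA and ADM were past 1.5-fold lower in both lines, and EIF4G2 in sh1089-2 alone. MISFA, which overlaps the map position of SPTY2D1, had 1.33 and 1.47 FPKM in sh1089-1 and sh1089-2, against 2.83 in shNC. SAA1, an acute phase protein with near-identical neighbours, had 13 reads in sh1089-1 and 6 in sh1089-2, against 32 in shNC, so its share of reads is uncertain. The small RNA genes SNORD14A and RNU7-49P were also past the line, but on few reads. SNORD14A had 4 reads in sh1089-1 and 1 in sh1089-2, against 8 in shNC, and RNU7-49P had 0 and 0, against 2 in shNC.

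E2F8, a repressor of the E2F family in the cell cycle, was higher inside the stretch. It had 2.89 FPKM in sh1089-1 and 2.75 in sh1089-2, against 1.42 in shNC. Its ratio was 2.03 in sh1089-1, with an interval from 1.48 to 2.81, and 1.93 in sh1089-2, with an interval from 1.39 to 2.70. E2F8 lies between ZDHHC13 and NAV2 on the map, and these are, with DKK3, the 3 above shNC in sh1089-2 among the 37 members compared. WEE1, the kinase that holds back entry into mitosis, had 3.02 FPKM in sh1089-1 and 4.15 in sh1089-2, against 3.27 in shNC. KIF18A, a mitotic kinesin that was picked after its values were seen, starts head to head with METTL15. It had 2.86 and 3.73 FPKM in sh1089-1 and sh1089-2, against 2.23 in shNC, while METTL15 was lower in both lines.

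On the map, the low values had a broad centre and soft edges. Between 10 and 20 Mb of chromosome 11, 40 genes had medians of -0.36 in sh1089-1 and -0.39 in sh1089-2. Below shNC were 35 and 36 of them, where 53.6% and 55.1% of all genes compared were. Of the 40, 25 were members, chosen on these values. Between 0 and 10 Mb the 82 genes had medians of -0.08 in sh1089-1 and -0.06 in sh1089-2. Between 20 and 30 Mb there were 12 genes, with medians of -0.11 in sh1089-1 and -0.41 in sh1089-2. Genes of that bin lay on both sides of shNC in sh1089-1, with LGR4 at -0.77 and CCDC34 at 0.24. Between 30 and 40 Mb, beyond the last member, 29 genes had medians of -0.21 in sh1089-1 and -0.13 in sh1089-2. Between 40 and 50 Mb the medians were 0.08 in sh1089-1 and 0.07 in sh1089-2. The lowest running median of 15 neighbouring genes was -0.49 in sh1089-1 and -0.62 in sh1089-2, in windows that include HPS5, GTF2H1, LDHA and TSG101.

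**Figure D2:**
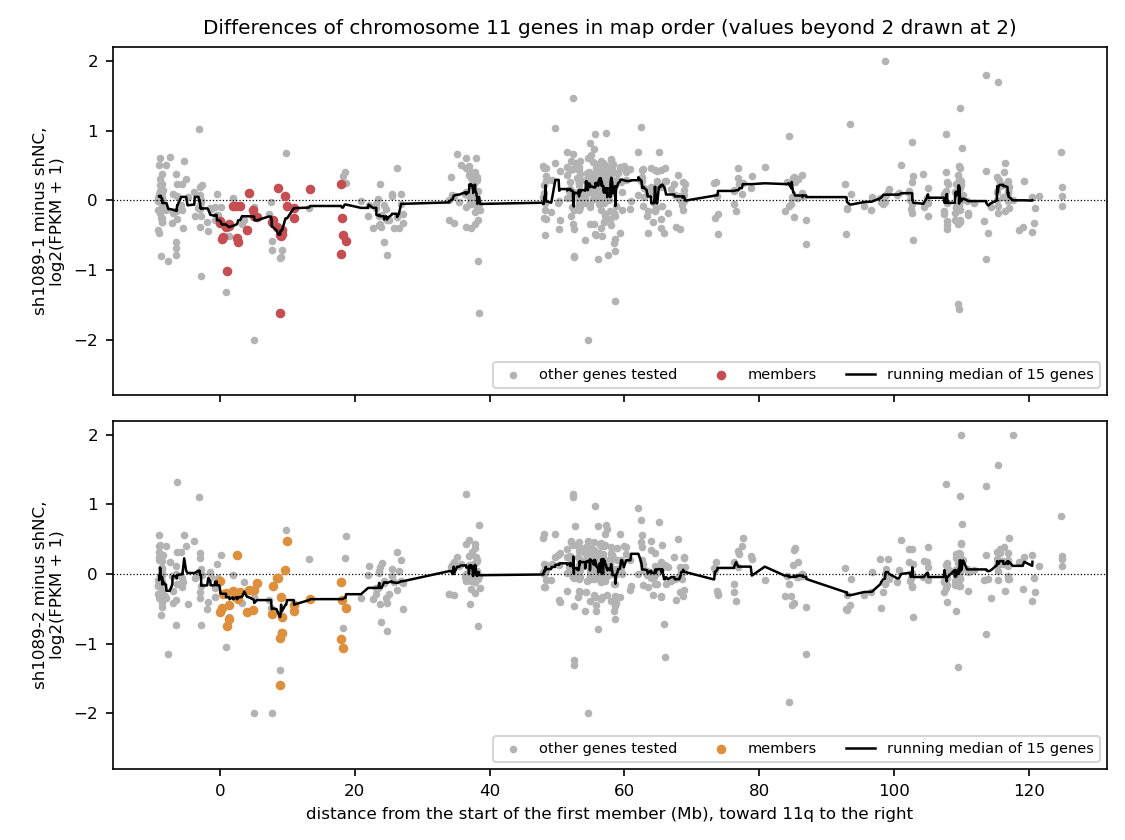
Difference of each chromosome 11 gene compared, sh1089-1 minus shNC above and sh1089-2 minus shNC below, against distance in Mb from the start of the first member, with members coloured and the running median of 15 genes as a line. The line dips over the members, to -0.49 in sh1089-1 and -0.62 in sh1089-2, and lies above 0 over much of the long arm.

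Taken whole, the rest of the chromosome had medians near or above 0, although the 29 genes between 30 and 40 Mb were lower, as given above. The 77 genes of 11p before the stretch had medians of -0.06 in sh1089-1 and -0.06 in sh1089-2. The 74 genes of 11p after it had -0.03 in sh1089-1 and -0.03 in sh1089-2. The 423 genes of 11q had 0.14 in sh1089-1 and 0.08 in sh1089-2. Chromosome 11 as a whole had a median of 0.06 in sh1089-1 and 0.02 in sh1089-2, inside the range of the other chromosomes, which ran between -0.14 on chromosome 2 and 0.13 on chromosome 21 in sh1089-1 and between -0.15 and 0.14 on the same chromosomes in sh1089-2. Chromosome 11 as a whole was thus not low in these libraries. The limits of the stretch were set by members chosen on these values, so a lower median inside it was built in.

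The edges are not sharp. Just before the first member, TMEM41B had 5.13 and 5.98 FPKM in sh1089-1 and sh1089-2, against 6.53 in shNC. DENND5A, next on that side, had 9.63 and 10.8 FPKM in sh1089-1 and sh1089-2, against 11.3 in shNC. Just after the last member, ARL14EP had 2.76 and 1.97 FPKM in sh1089-1 and sh1089-2, against 2.77 in shNC. These neighbours were below shNC too, by less than the median of the members in the same library. The ARL14EP difference in sh1089-2 came nearest to that median, at -0.34. DNAJC24, the next gene after it, had 0.954 and 1.24 FPKM in sh1089-1 and sh1089-2, against 1.28 in shNC. DENND2B, formerly ST5, lies before the stretch and had 0.832 and 0.889 FPKM in sh1089-1 and sh1089-2, against 0.832 in shNC. Inside, the first 18 members in map order had medians of -0.34 in sh1089-1 and -0.31 in sh1089-2, and the other 19 had -0.31 in sh1089-1 and -0.44 in sh1089-2.

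All chromosomes were also cut into 268 consecutive stretches of 40 compared genes, as a description only. Members were picked on these values, so a low rank of the stretch that holds most of them was favoured in advance. The stretch from SWAP70 to ZDHHC13, with 26 members, had the lowest median of the 268 in both comparisons, at -0.38 in sh1089-1 and -0.43 in sh1089-2. Of its 40 genes, 36 were below shNC in sh1089-1 and 38 in sh1089-2, beside 53.6% and 55.1% of all genes compared. The next lowest medians, from different stretches in the 2 comparisons, were -0.32 in sh1089-1 and -0.31 in sh1089-2, and the middle of all stretches was -0.04 in each. The highest, on the short arm of chromosome 17, had 0.39 in sh1089-1 and 0.33 in sh1089-2. The following stretch on 11p, from E2F8 to COMMD9 with 9 members, had -0.12 in sh1089-1 and -0.16 in sh1089-2. Between the hairpin lines, without shNC, the stretch from SWAP70 to ZDHHC13 had a median of -0.06 and rank 56 from the lowest.

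**Figure D3:**
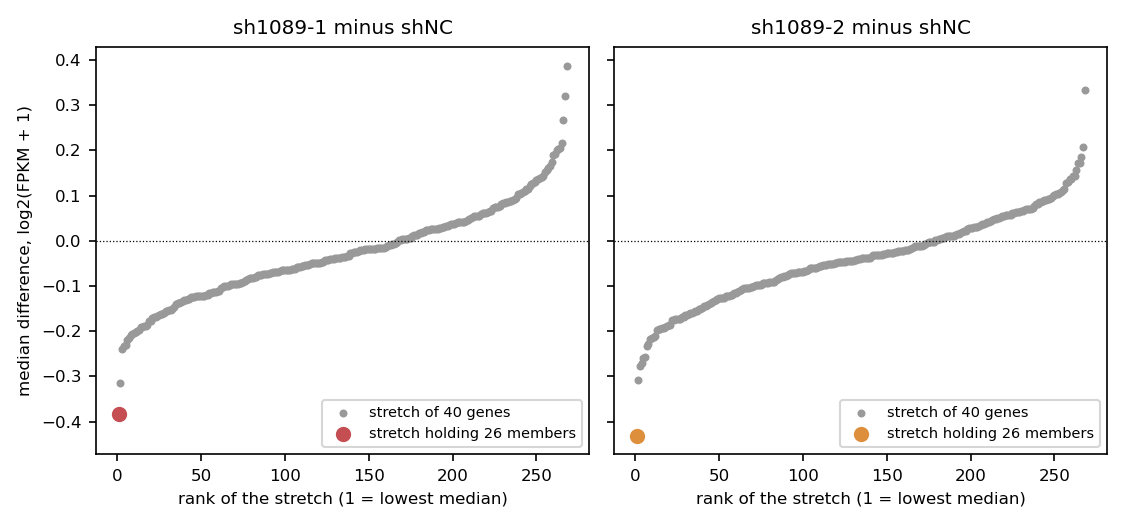
Median difference of 268 consecutive stretches of 40 genes over all chromosomes, ordered from the lowest, sh1089-1 minus shNC on the left and sh1089-2 minus shNC on the right. The coloured point is the stretch from SWAP70 to ZDHHC13, at -0.38 in sh1089-1 and -0.43 in sh1089-2.

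The single members were spread around a lower centre. At or below -0.25 were 64.9% of members in sh1089-1 and 67.6% in sh1089-2, beside 24.1% and 23.8% of all genes compared. The other genes of the stretch had 50% in sh1089-1 and 65% in sh1089-2 there. At or below -0.5 were 27.0% of members in sh1089-1 and 35.1% in sh1089-2, beside 8.40% and 7.66% of all genes. Leaving out HPS5, RNF141 and LGR4, the 34 remaining members had medians of -0.30 in sh1089-1 and -0.35 in sh1089-2.

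**Figure D4:**
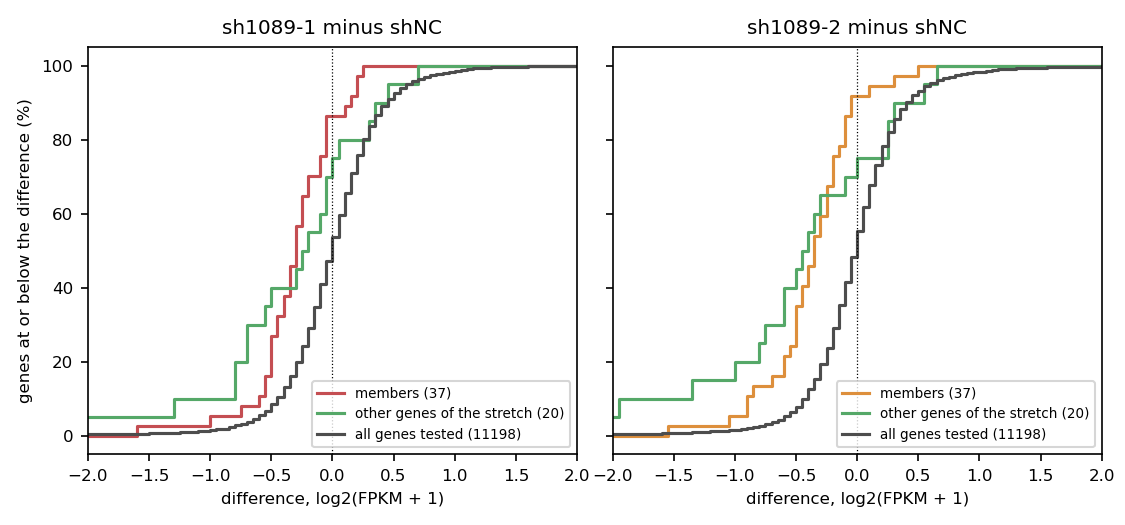
Share of genes at or below each difference of log2(FPKM + 1), for members, the other genes of the stretch and all genes compared, sh1089-1 minus shNC on the left and sh1089-2 minus shNC on the right. Over most of the range below 0 the curves of the members and of their neighbours lie left of the curve of all genes; at -0.25 the members stand at 64.9% in sh1089-1 and 67.6% in sh1089-2.

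The members differ from the average gene in level and length, and both go with small differences in these libraries. The members' median level was 3.74 FPKM, against 6.32 FPKM over all genes compared, and their median span was 63.7 kb, against 27.1 kb. Genes were cut into 4 equal groups by level, and again by span. The group of lowest level had medians of -0.11 in sh1089-1 and -0.08 in sh1089-2, and the group of longest span had -0.11 in sh1089-1 and -0.07 in sh1089-2. The 18 members in that longest group had -0.34 in sh1089-1 and -0.35 in sh1089-2. The 12 members in the group of lowest level had -0.37 in sh1089-1 and -0.32 in sh1089-2. In each of these groups that held members, their median lay below that of all genes of the group in both comparisons. The members were chosen on these values, so this was favoured in advance. The part of level and span in the shift was not tested.

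Many members have partners outside the stretch, some in the same complex and others only in the same family or pathway. Of 63 such genes listed for 11 members, which include importins, WNT modulators, MICAL relatives and PIK3C2B that are not subunits of a shared complex, 52 were compared, with medians of -0.01 in sh1089-1 and 0.03 in sh1089-2. Below shNC were 26 of 52 in sh1089-1 and 25 in sh1089-2, where 53.6% and 55.1% of all genes were. At least 1.5-fold lower on log2(FPKM + 1) were 0 in either, beside 5.83% and 5.63% of all genes. By the ratio of reads to shNC, without the added 1, HPS3 had 0.647 in sh1089-1 and 0.622 in sh1089-2, and GTF2H2 0.514 and 0.594. Both were past 1.5-fold lower, as was PIK3C2B at 0.561 in sh1089-1. On the higher side, ERCC2 had 1.42 in sh1089-1 and 1.36 in sh1089-2. The 11 members themselves had medians of -0.49 in sh1089-1 and -0.54 in sh1089-2, with 11 and 10 below shNC. The members were chosen on these values, so a wider difference in them was built in. Nothing is read from the contrast with the partners.

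In BLOC-2, HPS3 had 3.72 and 3.58 FPKM in sh1089-1 and sh1089-2, against 5.75 in shNC, while HPS6 had 21.5 and 20.5, against 19.0 in shNC. So 1 partner of HPS5 was lower and the other was not. The 8 TFIIH partners of GTF2H1 had medians of -0.08 in sh1089-1 and -0.10 in sh1089-2. The 5 PAF1 complex partners of CTR9 had 0.02 in sh1089-1 and -0.12 in sh1089-2. The 8 ESCRT-I partners of TSG101 had 0.09 in sh1089-1 and 0.08 in sh1089-2, and the 8 COPI partners of COPB1 had -0.09 in sh1089-1 and 0.11 in sh1089-2. The medians of these partners lay nearer to 0 than the values of their 11p subunits, which were chosen on these values. The 9 importins beside IPO7 had 0.11 in sh1089-1 and -0.05 in sh1089-2. The 4 compared partners of PARVA had -0.07 in sh1089-1 and -0.11 in sh1089-2, and the 4 MICAL family genes had -0.05 in sh1089-1 and -0.04 in sh1089-2. Single partners could still be low. PIK3C2B, the sister kinase of PIK3C2A, was lower, with 1.52 and 1.80 FPKM in sh1089-1 and sh1089-2, against 2.70 in shNC. DKK1, a secreted WNT inhibitor, had 114 and 116 FPKM in sh1089-1 and sh1089-2, against 159 in shNC.

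**Figure D5:**
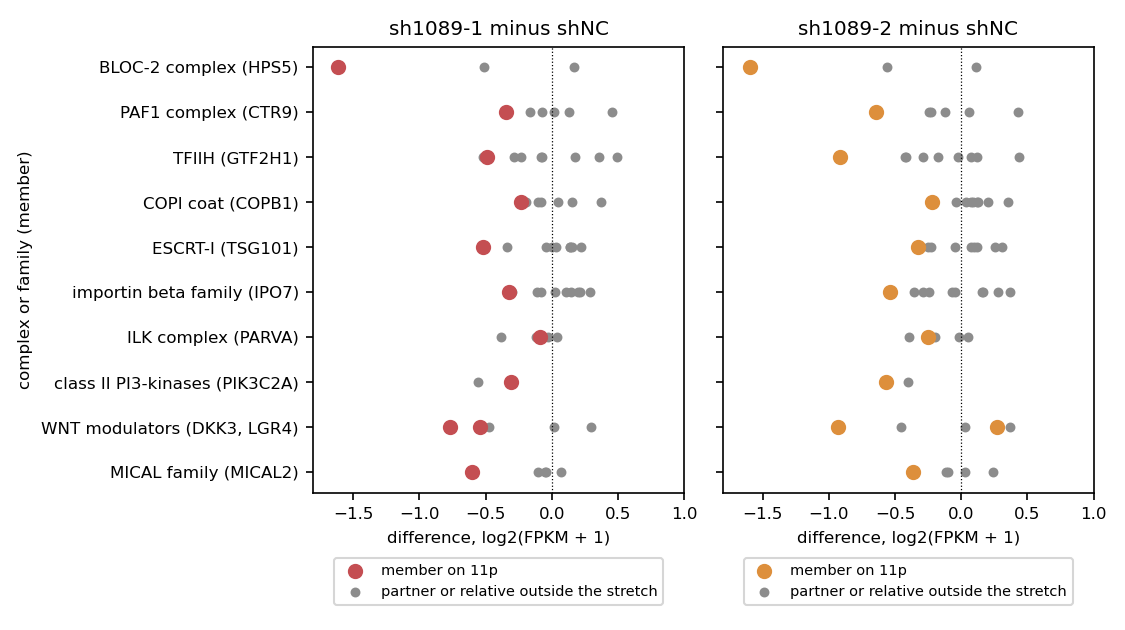
Difference of log2(FPKM + 1) of members on 11p (large points) and of their listed partners or relatives outside the stretch (small points), 1 row per complex or family, sh1089-1 minus shNC on the left and sh1089-2 minus shNC on the right. The partners centre on 0, with medians of -0.01 in sh1089-1 and 0.03 in sh1089-2, and HPS5 lies far to the left of its row.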

How the data were processed

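RNA-seq of 3 SK-Hep-1 libraries was analysed, 1 each for sh1089-1, sh1089-2 and shNC. The deposited values are FPKM per Ensembl gene, made by the authors. Per the submitters' processing notes, StringTie and FastQC were used on GRCh38. No version is given, and the aligner, annotation release and use of strand are also not given in the sources used here. Gene types and positions came from GENCODE 29, which holds 22444 of the 22464 genes, and names from the reference tables. Of 19219 genes with a value above 0, whole reads were recovered for 19204 (99.9%) by finding the gene length that makes all 3 values whole within the deposited decimals. The fitted length equalled that of GENCODE 29 in 61.9%. The method was checked on data made with known reads and with the lengths of GENCODE 29, so the search for another length was not checked. Of the 42 members, 19 had a fitted length equal to that of GENCODE 29.

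The members, the lists of partners and markers and the roles were chosen with earlier results of these data known. Every member is named; ratios with exact 95% counting intervals are given for members at least 1.5-fold from shNC in both hairpin lines, for the 3 members nearest to shNC and for members on opposite sides of it by over 1.2-fold. For NAV2, the ratio was added after its value was seen. Other genes of the stretch are named past 1.5-fold in both lines, with LDHA, ADM, EIF4G2, WEE1 and ST5 (now DENND2B). Edge genes are the nearest compared genes. Intervals and the floor of 3 reads cover counting error only. No test was run, since each group has 1 library. Arms were split at 53 Mb on chromosome 11. The alternatives were another pseudocount, filter, scaling, gene set or stretch width. Promoter windows are RefSeq's, on GRCh38.p14. Python 3.11.15 with numpy 2.4.6, pandas 2.3.3, scipy 1.17.1 and matplotlib 3.10.9 was used.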

Additional observations from a re-analysis of the deposited data

Results flagged for a closer look

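DKK3 drew attention because its sh1089-1 and sh1089-2 values lie on opposite sides of shNC. Its difference of log2(FPKM + 1) from shNC was -0.54 in sh1089-1 and 0.27 in sh1089-2. The difference between the lines was not tested, since each has 1 library.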

How the results depend on the processing

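The median difference of the members stayed negative under all 10 alternatives, between -0.43 and -0.27 in sh1089-1 and between -0.52 and -0.30 in sh1089-2; the value in sh1089-1 reached -0.43 on RPM from recovered reads with no pseudocount. Members at least 1.5-fold lower in both lines numbered 3 of 37 as reported, 6 of 37 with a pseudocount of 0.1 and 6 of 40 on RPM. The count over all genes, given below, rose under both alternatives too. Members below shNC in both lines numbered 30 of 37, where 42.3% of all genes were. With a mean FPKM of at least 5, where fewer are compared, they numbered 14 of 15. The share of all genes was not worked out at that filter. Over all genes, 312 of 11198 were at least 1.5-fold lower in both lines as reported. That count was 525 of 11198 with a pseudocount of 0.1 and 615 of 19219 with no filter on low values. It was 142 of 6376 with a mean FPKM of at least 5 and 473 of 11504 on RPM. For protein-coding genes with at least 100 reads it was 202 of 10122. The other genes of the stretch had medians between -0.34 and -0.09 in sh1089-1 and between -0.50 and -0.04 in sh1089-2 over 9 alternatives, nearest to 0 with no filter on low values in both. The alternatives that centre members within 4 groups of level or span, or leave out the lowest members, were chosen after seeing the data. No paired analysis was possible because each group has 1 library. Depth limits the low members: RNF141 rests on 67 reads in sh1089-1, and 5 members lie under 1 FPKM.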
